A study of Mus musculus with 2 samples.

Results

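The genes of the mouse major histocompatibility complex (MHC) and of antigen presentation were followed in total RNA from heart. The set comprised every gene whose symbol starts with H2-, together with B2m, Tap1, Tap2, Tapbp, Cd74, Ciita and Nlrc5, which gave 52 of the 55536 genes in the annotation. The prefix brought in 45 of them and 7 were named singly. On mm10, 48 lay on chromosome 17 and the others on chromosomes 2 (B2m), 8 (Nlrc5), 16 (Ciita) and 18 (Cd74). The annotation classed 41 as protein coding and 11 as pseudogenes of some kind. For 21 of the 52 the expected count averaged 50 or more over the hearts, and ratios between hearts are read for these alone.

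Both samples were male heart tissue of the mouse strain B6CASTF1/J at an age of 36 days. This is the first generation of a cross of the B6 and CAST strains, so each autosomal gene was present as 1 allele of each strain. The labels give 1 group with 2 biological replicates, which are separate biosamples that share a donor entry, and the sources used here do not say whether that entry is 1 animal. The spread between these samples may therefore be technical in part. No treatment or other genotype was studied, so the comparisons are between the 2 samples and between 2 quantifications of the same reads. The samples are called the 2 hearts in this text, although they may come from 1 animal.

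MHC class I molecules are made of a heavy chain and beta-2 microglobulin and display peptides from inside the cell to CD8 T cells. The peptides are cut by the proteasome, pumped into the endoplasmic reticulum by the transporter of Tap1 and Tap2, and loaded with the help of tapasin, the product of Tapbp. MHC class II molecules, made of an alpha and a beta chain, display peptides from endosomes to CD4 T cells, and are found mainly on macrophages, dendritic cells and B cells, with some on activated endothelium. NLRC5 and CIITA are the transcriptional co-activators of class I and class II genes.

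The classical class I heavy chain genes H2-K1 and H2-D1 and several nonclassical relatives are near copies of one another, and the following reference sequences show where reads could tell them apart. The stretch of 75 coding bases in which they differed most, positions 478 to 552 of the H2-K1 coding sequence counted from its ATG, is given first, with a capital at each base that differs from H2-K1.
H2-K1: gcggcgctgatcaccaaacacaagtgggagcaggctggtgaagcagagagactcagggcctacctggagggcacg
H2-D1: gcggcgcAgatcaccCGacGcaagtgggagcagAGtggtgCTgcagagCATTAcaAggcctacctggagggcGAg
H2-Q4: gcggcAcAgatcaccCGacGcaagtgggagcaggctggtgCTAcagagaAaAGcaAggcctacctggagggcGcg
H2-Q6: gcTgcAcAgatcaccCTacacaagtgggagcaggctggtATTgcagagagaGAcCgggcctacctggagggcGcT
H2-T23: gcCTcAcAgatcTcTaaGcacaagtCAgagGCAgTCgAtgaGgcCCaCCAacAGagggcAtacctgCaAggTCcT
H2-D1 differed from H2-K1 at 16 of these bases, H2-Q4 and H2-Q6 at 13 each and H2-T23 at 29. The stretch in which they differed least, positions 738 to 812, is marked in the same way.
H2-K1: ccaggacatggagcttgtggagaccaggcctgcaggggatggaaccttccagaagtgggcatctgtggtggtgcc
H2-Q4: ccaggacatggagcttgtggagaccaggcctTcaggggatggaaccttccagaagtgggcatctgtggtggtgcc
H2-T23: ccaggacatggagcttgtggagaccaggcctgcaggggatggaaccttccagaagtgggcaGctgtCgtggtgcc
H2-D1, H2-Q6 and H2-Q7 had the H2-K1 bases throughout that stretch, H2-Q4 differed at 1 and H2-T23 at 2. Over the aligned coding sequence H2-K1 and H2-D1 were 91.5% identical, with a longest identical run of 91 nt, and H2-Q7 and H2-Q6 were 95.7% identical with a run of 265 nt. These are transcript sequences of the mm10 reference, which represents B6. The CAST alleles were not analysed here.

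The region upstream of a gene's start carries the elements through which these co-activators act, so the 250 bases before the start are shown for B2m, for both classical heavy chains, for a class II chain and for Tap1, whose level differed between the hearts. They are RefSeq sequences on GRCm38.p6, printed in the direction of transcription. Capitals mark exact matches on either strand to CCAAT (the core of the Y box, ATTGG on the other strand), TGACG (the core of the X2 box), an interferon response element (GAAA, any 2 bases, GAAA) and an NF-kB-like site (GGGG, any 4 bases, CC), and adjoining or overlapping matches run together.
B2m (chr2:122147437-122147686, plus strand): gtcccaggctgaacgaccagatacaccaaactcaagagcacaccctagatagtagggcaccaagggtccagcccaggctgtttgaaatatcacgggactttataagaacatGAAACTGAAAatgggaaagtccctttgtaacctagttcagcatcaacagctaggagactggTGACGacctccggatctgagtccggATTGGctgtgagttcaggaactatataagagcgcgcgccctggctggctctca
H2-K1 (chr17:34000348-34000597, minus strand): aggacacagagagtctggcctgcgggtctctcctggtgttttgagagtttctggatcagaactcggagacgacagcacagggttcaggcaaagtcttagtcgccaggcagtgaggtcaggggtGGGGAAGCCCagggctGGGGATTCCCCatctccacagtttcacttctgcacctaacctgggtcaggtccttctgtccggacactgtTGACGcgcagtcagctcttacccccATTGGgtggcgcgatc
H2-D1 (chr17:35262844-35263093, plus strand): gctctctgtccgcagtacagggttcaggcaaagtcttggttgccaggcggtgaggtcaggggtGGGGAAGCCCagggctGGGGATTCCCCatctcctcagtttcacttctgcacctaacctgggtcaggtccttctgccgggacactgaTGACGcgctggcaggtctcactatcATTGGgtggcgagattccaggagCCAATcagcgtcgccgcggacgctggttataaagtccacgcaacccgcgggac
Tap1 (chr17:34187306-34187555, plus strand): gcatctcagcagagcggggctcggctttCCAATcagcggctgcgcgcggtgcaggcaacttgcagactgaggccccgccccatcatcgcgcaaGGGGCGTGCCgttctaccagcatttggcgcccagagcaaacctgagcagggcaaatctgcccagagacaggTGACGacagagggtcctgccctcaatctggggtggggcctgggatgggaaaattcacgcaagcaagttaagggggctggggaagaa
H2-Aa (chr17:34287824-34288073, minus strand): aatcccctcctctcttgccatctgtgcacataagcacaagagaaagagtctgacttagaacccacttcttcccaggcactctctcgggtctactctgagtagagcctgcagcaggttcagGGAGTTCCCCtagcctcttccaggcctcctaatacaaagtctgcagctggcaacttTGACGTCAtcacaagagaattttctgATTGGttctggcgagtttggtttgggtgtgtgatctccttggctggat
In B2m, H2-K1, H2-D1 and H2-Aa a TGACG match was followed by ATTGG, 25 bases on from start to start in B2m, H2-K1 and H2-D1 and 26 in H2-Aa. In Tap1 the order was the reverse, with the CCAAT match upstream of the TGACG match. Entries of 300 bases, 250 before and 50 after a start, existed for 35 of the 52 members, as 38 entries. CCAAT was present in 34 of the 38 (89.5%) and in 37.4% of the 32851 promoters in the table. TGACG was present in 15 member entries (39.5%) against 20.8% of all promoters, the NF-kB-like site in 12 (31.6%) against 18.7%, and the interferon response element in 3 (7.90%, those of B2m, H2-T22 and H2-T23) against 3.44%. TTCNNNGAA, a STAT-like site, was present in 3 entries (7.90%) against 8.30%, and in none of the 5 windows shown. A TGACG followed after 20 to 30 bases by ATTGG was held by 0.435% of all promoters (143) and by 7 entries of 6 members, B2m, H2-K1, H2-D1, H2-Aa, H2-M3 and H2-Q7, a spacing looked for after the single matches had been seen. A match is a description of the letters and does not show a bound site, and several of these promoters are related by sequence.

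Libraries held 42481559 expected counts in replicate 2 and 41846508 in replicate 1, of which 199815 and 203838 fell on spike-in RNAs. An expected count is the authors' estimate of the reads from a gene, which need not be whole where reads are shared, and TPM is that estimate per length, scaled to the same total in every library. Unless the second quantification is named, values are from the first, which the authors made from alignments to the transcriptome. The defining heart muscle genes were abundant in both hearts, with 28221 TPM in replicate 2 and 25772 TPM in replicate 1 summed over 7 of them. Of 6 thymus markers, 3 (Ptcra, Foxn1 and Psmb11) were at 0 in both. The other thymus markers had few counts, Rag1 11 in replicate 2 and 10 in replicate 1, Dntt 2 and 0, and Rag2 0 and 1. The hearts differed in markers outside heart muscle, since 5 erythroid markers summed to 9335 TPM in replicate 2 and 20325 TPM in replicate 1, and 6 adipocyte markers to 19.9 TPM and 343 TPM. Over all 15103 genes used for scaling, edgeR's common biological coefficient of variation was 0.119. In bulk tissue, fewer cells of a type and less RNA per cell cannot be told apart.

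The MHC and antigen presentation genes ranged from 0 counts to the 91.4 TPM of B2m in replicate 2. Together they held 417.6 TPM in replicate 2 and 382.0 TPM in replicate 1 (399.8 ± 25.2, SD, n = 2 here and throughout). Of the 52 members, 19 reached 1 TPM in both hearts, against 21.4% of all genes. Among protein-coding members the figure was 16 of 41, against 49.7% of the 22015 nuclear protein-coding genes. Classical class I genes held 44.9% of the members' TPM, class II genes with Cd74 23.1%, class I loading genes 12.5% and the 30 nonclassical and other class I genes 8.73%. A further 13 members had a mean between 0.1 and 1 TPM, 4 were above 0 but under 0.1 TPM, and 15 had a count of 0 in both hearts.

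**Figure D1:**
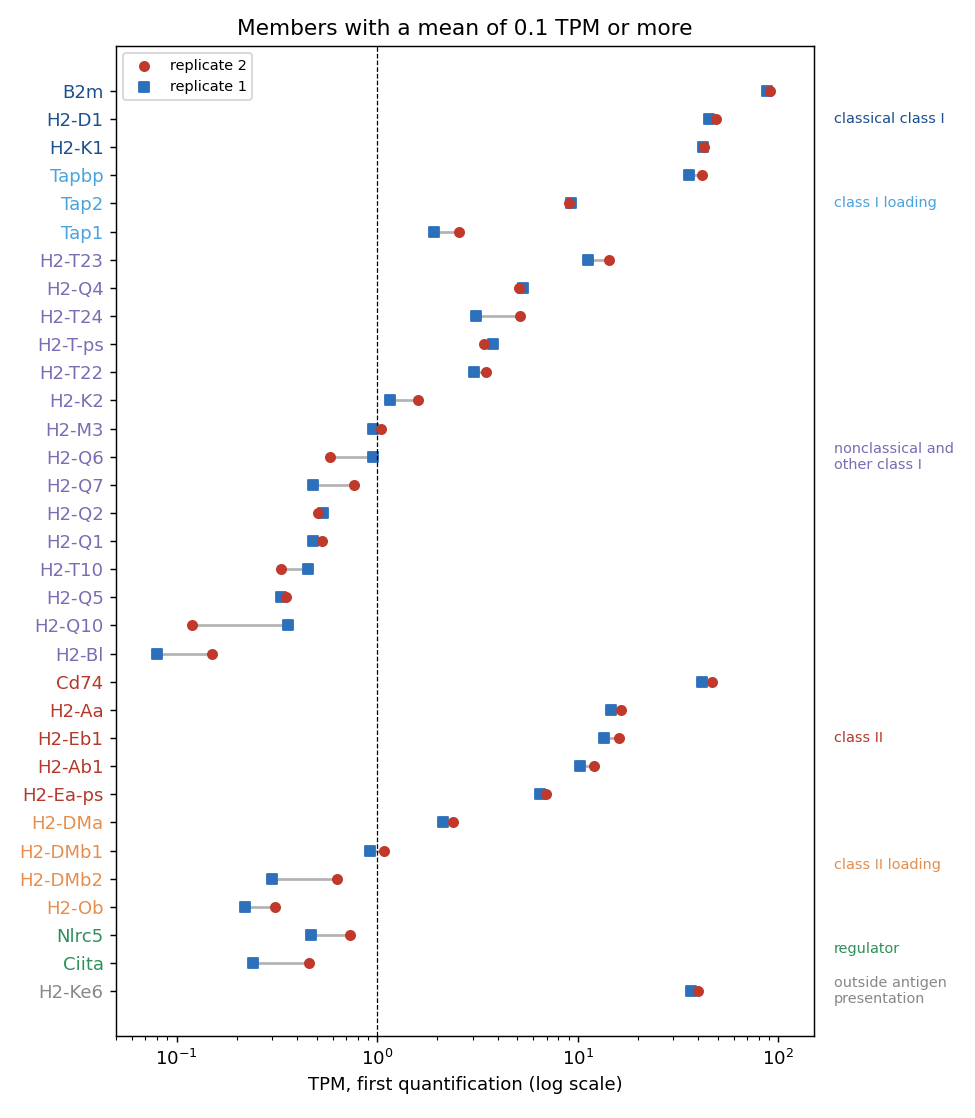
TPM of the 33 members with a mean of 0.1 TPM or more in the first quantification, on a log scale, with circles for replicate 2 and squares for replicate 1, grouped and coloured by role; the dashed line marks 1 TPM. B2m stood highest at 91.4 TPM in replicate 2 and 87.8 TPM in replicate 1, and the H2-Q genes other than H2-Q4 lay below 1 TPM in both hearts.

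Classical class I genes were the most abundant group and were alike in the 2 hearts. B2m, the class I light chain (ENSMUSG00000060802.8, chromosome 2, 122147686 to 122153083, plus strand), had 2350 expected counts and 91.4 TPM in replicate 2 and 2249 counts and 87.8 TPM in replicate 1. It was the highest member and ranked 613 of 22015 nuclear protein-coding genes by mean TPM. H2-D1 (ENSMUSG00000073411.11, chromosome 17, 35262730 to 35267499, plus strand), a classical heavy chain, had 49.1 TPM in replicate 2 and 45.3 TPM in replicate 1, on 2909 and 2715 counts. H2-K1 (ENSMUSG00000061232.16, chromosome 17, 33996017 to 34000347, minus strand), the other classical heavy chain, had 42.9 TPM in replicate 2 and 41.99 TPM in replicate 1, on 1326 and 1411 counts. Per length the heavy chains were close, with H2-D1 holding 52.7% ± 1.05 of the TPM of the pair, and 53.7% ± 0.294 in the second quantification. B2m was at about the same level as their sum, 91.4 against 92.0 TPM in replicate 2 and 87.8 against 87.3 TPM in replicate 1. By mean TPM the members after B2m were H2-D1, Cd74, H2-K1, Tapbp and H2-Ke6. H2-D1 was above Cd74 within each heart, although their ranges over the hearts overlapped, while Cd74 and H2-K1, and likewise Tapbp and H2-Ke6, changed places between the hearts. Tapbp and H2-Ke6 lay below H2-K1 in both hearts, but in the second quantification H2-Ke6 came next after B2m.

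The genes for peptide loading of class I differed widely in level. Tapbp (chromosome 17, 33915899 to 33929292, plus strand) had 41.5 TPM in replicate 2 and 35.8 TPM in replicate 1. Tap2, a subunit of the peptide transporter, had 9.09 TPM in replicate 2 and 9.25 TPM in replicate 1. Its partner Tap1 (ENSMUSG00000037321.17, chromosome 17, 34187553 to 34197225, plus strand) had 2.57 TPM in replicate 2 and 1.93 TPM in replicate 1. The transporter takes 1 copy of each, and Tap2 held 80.3% ± 3.38 of their summed TPM, or 78.0% in replicate 2 and 82.7% in replicate 1. A large part of the Tap2 level was on a transcript annotated with a retained intron, as described with the transcripts. Tapbp overlaps Zbtb22 on the same strand, a gene with 513 and 412 counts in replicates 2 and 1, and reads in the overlap cannot be assigned with certainty.

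Nonclassical and other class I genes were led by H2-T23, which encodes Qa-1, the ligand of the inhibitory receptor of CD94 and NKG2A on natural killer cells. H2-T23 had 14.3 TPM in replicate 2 and 11.2 TPM in replicate 1, on 678.7 and 533.6 counts. H2-Q4 followed with 5.10 TPM in replicate 2 and 5.34 TPM in replicate 1, and H2-T24 with 5.16 and 3.12 TPM. H2-Q4 and H2-T24 overlapped in their ranges. H2-T22, whose product is recognised by some gamma delta T cells, had 3.51 TPM in replicate 2 and 3.03 TPM in replicate 1, and the pseudogene entry H2-T-ps 3.42 and 3.80 TPM. H2-K2, annotated as a transcribed pseudogene, had 1.60 TPM in replicate 2 and 1.16 TPM in replicate 1, while H2-M3, which presents N-formylated peptides of bacteria and mitochondria, had 1.04 and 0.95 TPM. Of the 8 H2-Q genes only H2-Q4 reached 1 TPM in both hearts, and of the 6 H2-T genes 4 did, H2-T22, H2-T23, H2-T24 and H2-T-ps.

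The H2-M genes were nearly silent apart from H2-M3. Of 14 H2-M members 10 had 0 counts in both hearts and 12 had at most 1 count in either. The H2-M10 genes, known for expression in vomeronasal sensory neurons, were among those at 0 in both. Also at 0 in both were H2-T3, the thymus leukaemia antigen of intestinal epithelium, and H2-Oa, the alpha chain of the H2-O complex, an inhibitor of H2-DM. For a gene at 0, up to 3 counts remain possible, which is 0.0706 CPM (expected counts scaled to the library total) in replicate 2 and 0.0717 CPM in replicate 1, and this limit covers counting error only. Of the 15 members at 0 in the first quantification, 12 were at 0 in the second as well, and the exceptions were H2-Q3, H2-T3 and H2-M10.1 with means of 0.257, 0.0721 and 0.0745 TPM there. With the exception of H2-M3, no H2-M gene passed 0.05 TPM in either heart in the first quantification.

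The class II genes were led by Cd74 and by the I-A and I-E chains. Cd74 (chromosome 18, 60803848 to 60812652, plus strand), the invariant chain that guides class II molecules to endosomes, had 46.8 TPM in replicate 2 and 41.5 TPM in replicate 1, on 1878 and 1667 counts. H2-Aa, the alpha chain of I-A, had 16.5 TPM in replicate 2 and 14.7 TPM in replicate 1, and its beta chain H2-Ab1 12.1 and 10.2 TPM. H2-Aa thus held 58.3% ± 0.970 of the TPM of the I-A pair. H2-Eb1, the beta chain of I-E, had 16.1 TPM in replicate 2 and 13.5 TPM in replicate 1, which overlapped the range of H2-Aa. The alpha chain of I-E is entered as H2-Ea-ps, a polymorphic pseudogene, and B6 mice are known to carry an inactive Ea allele. H2-Ea-ps had 205 counts and 6.98 TPM in replicate 2 and 195 counts and 6.49 TPM in replicate 1, or 31.4% ± 1.49 of the TPM of the I-E pair. These tables are not split by strain, so which allele these reads came from was not analysed here. H2-Eb2 had 2 counts in replicate 2 and 0 in replicate 1.

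Genes of class II peptide exchange were low. H2-DMa, the alpha chain of the H2-DM complex that removes the invariant chain peptide, had 2.40 TPM in replicate 2 and 2.13 TPM in replicate 1. H2-DMb1, a beta chain of that complex, had 1.08 TPM in replicate 2 and 0.92 TPM in replicate 1, and its neighbour and near copy H2-DMb2 had 0.63 and 0.30 TPM. H2-Ob, the beta chain of H2-O, had 23 counts in replicate 2 and 13 in replicate 1 while H2-Oa had none. Among the regulators, Ciita had 62 counts and 0.46 TPM in replicate 2 and 40 counts and 0.24 TPM in replicate 1. Nlrc5 (ENSMUSG00000074151.13, chromosome 8, 94434356 to 94527272, plus strand) had 91 counts and 0.73 TPM in replicate 2 and 50 counts and 0.47 TPM in replicate 1. Both regulators were thus below 1 TPM in both hearts.

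H2-Ke6 carries the prefix by position only, since it encodes Hsd17b8, an enzyme of steroid and fatty acid metabolism, and is no antigen presentation gene. It had 39.7 TPM in replicate 2 and 36.8 TPM in replicate 1, and 56.6 and 56.5 TPM in the second quantification. Of its 100-nt transcript windows 61.6% occur also in Gm20427, an entry of the class processed transcript on the same strand with 78.0 counts in replicate 2 and 99.5 in replicate 1, and reads in them cannot be assigned with certainty. The median ratio of the members given next was 0.12 with and without it.

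Between the hearts, most measured antigen presentation genes had ratios slightly above 0, many of them within counting error. Of the 21 measured members, those whose expected count averaged 50 or more, 17 had a log2 ratio of replicate 2 over replicate 1 above 0, against 50.1% of the 12541 genes with that count. The median log2 ratio was 0.12, with a range of -0.19 to 0.81, against a median of 0.00 and a central 95% range of -0.59 to 0.50 over all those genes. The ratios use counts scaled by TMM factors. With 2 hearts the smallest p of an exact permutation of signs is 0.5, so no p-value is given, and members that share cells, reads or a chromosome are not independent. By size, 3 of 21 members were 1.5-fold or more higher in replicate 2, against 1.69% of all genes, and 0 of 21 were 1.5-fold or more higher in replicate 1, against 2.58% (4.27% in either direction). None of the 21 reached 2-fold in either direction (0.279% of all genes were 2-fold higher in replicate 2 and 1.0% in replicate 1, 1.28% in either direction).

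The 3 members past 1.5-fold were Nlrc5, Tap1 and H2-T24. Nlrc5, with its 91 and 50 counts, had a log2 ratio of 0.81 (95% counting interval 0.31 to 1.35). Tap1 had 239 counts in replicate 2 and 146 in replicate 1, a log2 ratio of 0.66 (0.36 to 0.97). H2-T24 (ENSMUSG00000053835.17, chromosome 17, 36005695 to 36020560, minus strand), a nonclassical class I gene, had 342 counts in replicate 2 and 219 in replicate 1, a log2 ratio of 0.60 (0.35 to 0.85). The intervals are exact Clopper-Pearson intervals on the counts and cover counting error only. Low counts vary more, and among genes within 1.5-fold of the count of Nlrc5, 7.03% were 1.5-fold or more higher in replicate 2, against 2.13% for Tap1 and 1.40% for H2-T24. In the authors' posterior intervals of TPM, whose level the sources used here do not give, H2-T24 spanned 4.51 to 5.78 in replicate 2 and 2.73 to 3.61 in replicate 1, which do not overlap. For Tap1 the bounds were 2.37 to 3.50 and 1.57 to 2.85, and for Nlrc5 0.699 to 1.63 and 0.467 to 1.29, and both pairs overlap. In the second quantification the log2 ratios of estimated counts were 0.80 for Nlrc5, 0.55 for Tap1, which is short of 1.5-fold, and 0.59 for H2-T24. By TPM there, Nlrc5 had 0.545 in replicate 2 and 0.453 in replicate 1, a smaller gap than by counts. Tap1 had 3.46 TPM in replicate 2 and 2.01 TPM in replicate 1 there, and H2-T24 6.07 and 3.70 TPM. Both were past 1.5-fold by TPM in the second quantification. By TPM in the first quantification, with 0.1 TPM added, the log2 ratios were 0.54 for Nlrc5 and 0.40 for Tap1, both short of 1.5-fold, and 0.71 for H2-T24, so H2-T24 alone of the 3 was past 1.5-fold in each of these values.

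**Figure D2:**
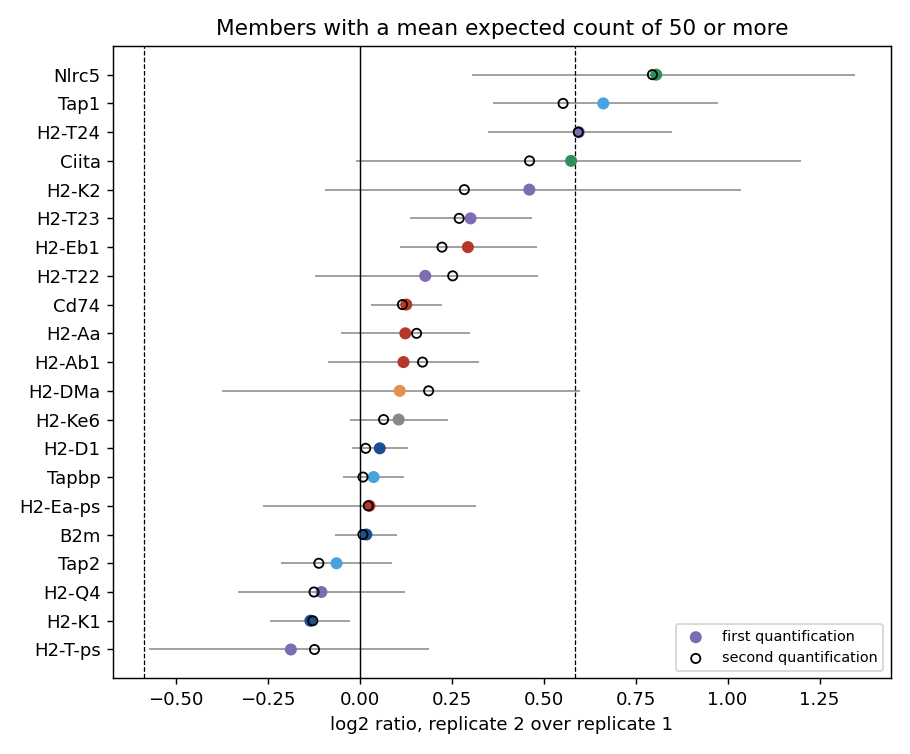
Log2 ratio of replicate 2 over replicate 1 for the 21 measured members; filled points are the first quantification, coloured by role, with 95% counting intervals, open points are the second, and dashed lines mark 1.5-fold. Nlrc5, Tap1 and H2-T24 lie past 1.5-fold in the first quantification, and B2m, H2-D1 and H2-K1 lie within 0.14 of 0.

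Counting intervals that leave out 0 were common over all genes, above 0 for 1944 and below 0 for 2109 of 12541. Besides the 3 members above, 4 more members had such an interval, at smaller differences. The counting interval lay above 0 for 6 of 21 members, against 15.5% of all genes, namely the 3 above with H2-T23 at 0.30 (0.14 to 0.47), H2-Eb1 at 0.29 (0.11 to 0.48) and Cd74 at 0.13 (0.031 to 0.22). It lay below 0 for 1, H2-K1 at -0.13 (-0.24 to -0.025), against 16.8% of all genes. By TPM the direction of H2-K1 turned, to 0.03. By role, the 2 regulators summed to a log2 ratio of 0.71 (0.34 to 1.11), the H2-T genes to 0.29 (0.18 to 0.41) and class II genes to 0.14 (0.075 to 0.21). Classical class I genes summed to 0.0020 (-0.048 to 0.052), the class I loading genes to 0.052 (-0.019 to 0.12) and the H2-Q genes to -0.14 (-0.32 to 0.044). Ciita, with a ratio of 0.57 (-0.0092 to 1.20), fell just short of 1.5-fold and H2-K2, at 0.46 (-0.093 to 1.04), was also within counting error. The other measured members, among them B2m at 0.018, H2-D1 at 0.055, Tapbp at 0.038 and Tap2 at -0.063, lay within counting error of 0.

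Other genes of the pathway are given from lists, chosen with earlier results of these data known. Of 14 class I processing and loading genes, all measured, 0 were 1.5-fold higher in replicate 2 by counts and 1 in replicate 1, with a median log2 ratio of 0.046. The exception was Cd1d1, which presents lipids to NKT cells, with 46.9 counts in replicate 2 and 108 in replicate 1. The immunoproteasome subunit Psmb9 had 104 counts in replicate 2 and 73 in replicate 1, a log2 ratio of 0.46 (0.020 to 0.92). By TPM the gap of Psmb9 was wider, at 3.92 in replicate 2 and 1.90 in replicate 1, and 5.52 and 2.43 in the second quantification. Psmb9 starts on the opposite strand beside Tap1, and the promoter windows of the 2 genes overlap, so the Tap1 sequence printed above is in part also that of Psmb9. The other immunoproteasome subunits Psmb8 and Psmb10 stood at 0.28 and -0.050. Of 8 class II processing genes measured, 0 passed 1.5-fold in either direction and the median was -0.053. The lysosomal protease Ctss, which cuts the invariant chain, stood at 0.21 (0.0071 to 0.42).

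Upstream regulators differed little between the hearts with few exceptions. Of 17 genes for the factors that bind these promoters and for interferon signalling, 1 was 1.5-fold higher in replicate 2, Irf8, a factor of myeloid cells, with 175 counts in replicate 2 and 100 in replicate 1. None was 1.5-fold higher in replicate 1, and the median log2 ratio was 0.030. Irf1, an interferon-induced activator of class I genes, had 549 counts in replicate 2 and 375 in replicate 1, a log2 ratio of 0.50 (0.31 to 0.70). Of 23 interferon-induced genes 16 were measured, 7 were 1.5-fold higher in replicate 2 and 1, Ifi27, in replicate 1, with a median log2 ratio of 0.49. Among the 7 were Ifit3 with 188.9 counts in replicate 2 and 51.1 in replicate 1, Irf7 with 178 and 77, and Mx1 with 88.0 and 34.5. A higher level of interferon-induced genes in replicate 2 was already known from these data when the list was made, so that count is no independent evidence of a direction. Interferon genes themselves were at or near 0, with Ifnb1 at 0 counts in both hearts and Ifng at 1 in replicate 2 and 0 in replicate 1.

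**Figure D3:**
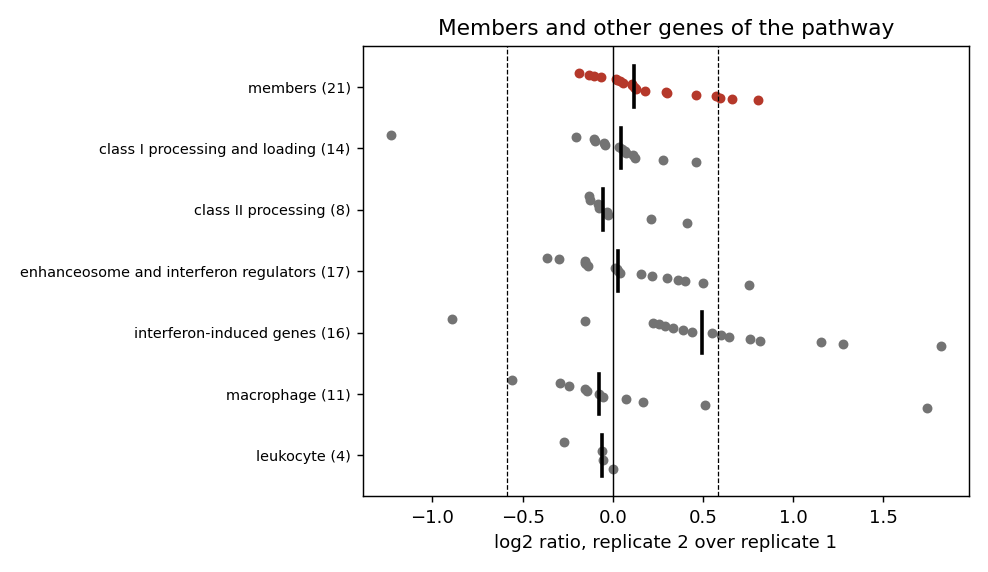
Log2 ratio of replicate 2 over replicate 1 for the 21 measured members, for 4 lists of other pathway genes and for 2 lists of immune cell markers, 1 point a gene; the short bars are medians, the number of genes is in brackets and dashed lines mark 1.5-fold. The medians are 0.12 for the members and 0.49 for the interferon-induced genes, and those of the macrophage and leukocyte markers lie slightly below 0.

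Markers of the immune cells that carry class II differed by cell type. Of 4 leukocyte markers and 11 macrophage markers, all measured, the median log2 ratios were -0.057 and -0.078, and their summed levels were 18.7 and 122.2 TPM in replicate 2 and 18.1 and 132.2 TPM in replicate 1. None of these 15 markers was at 0. The macrophage marker Cx3cr1, with 255 counts in replicate 2 and 73 in replicate 1, was the only 1 of the 15 past 1.5-fold in replicate 2. Only 4 of the 11 macrophage markers had a log2 ratio above 0. Lyve1 went the other way, with 795 counts in replicate 2 and 1136 in replicate 1, at -0.56 (-0.69 to -0.43). Mrc1 stood at -0.24 (-0.34 to -0.14), and 0 of the 11 passed 1.5-fold in replicate 1. The 8 dendritic cell markers summed to 5.12 TPM in replicate 2 and 4.61 TPM in replicate 1, nearly all of it Zbtb46, and none was at 0. Only Zbtb46 was measured, with 671 counts in replicate 2 and 613 in replicate 1, so the sum rests on 1 gene. The others had few counts, such as Flt3 with 7 in replicate 2 and 9 in replicate 1 and Clec9a with 3 in each. The 5 B cell markers were few in counts and summed to 3.15 TPM in replicate 2 and 1.37 TPM in replicate 1, with none at 0 and Cd79a at 43 and 18 counts. The 9 T and NK cell markers summed to 1.35 TPM in replicate 2, with 1 at 0, and 1.62 TPM in replicate 1, with none at 0. The part of B cells, of other immune cells or of blood and fat in the ratios of the members was not tested.

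The quantifications gave close levels for some abundant members and not for others. The second was made from the reads and an index, and its transcript values were summed per gene. A 2-fold or larger difference in the same direction in both hearts was looked for among 23 members with a mean of 1 TPM or more in either, on the scale of log2 of TPM plus 0.1. B2m, H2-D1, Cd74 and H2-K1 differed by under 0.25 on that scale in both hearts. H2-Ab1 had 12.1 and 10.2 TPM in the first quantification and 15.8 and 17.2 TPM in the second in replicates 2 and 1, so that H2-Aa held 54.4% ± 3.39 of the I-A pair in the second. H2-Ke6 was higher in the second, and Tapbp was lower there, with 30.7 TPM in replicate 2 and 32.6 TPM in replicate 1. Summed over all 52 members, mean TPM was 399.8 in the first quantification and 457.6 in the second. At 2-fold or more in both hearts, 0 of 23 were higher in the first quantification, against 3.58% of 12984 genes. By the same rule 2 of 23 were lower in the first, against 3.86%. Both directions together took in 7.44% of all genes and 2.49% of the nuclear protein-coding genes. The 2 were H2-DMb1, with 1.08 and 0.92 TPM in the first and 2.40 and 2.45 TPM in the second in replicates 2 and 1, and H2-Q5, a polymorphic pseudogene, with 0.35 and 0.33 TPM in the first and 1.09 and 1.12 TPM in the second. H2-Q7, which encodes a Qa-2 antigen, had 0.77 and 0.48 TPM in the first quantification and 1.62 and 1.75 TPM in the second, and with 0.1 TPM added it fell just short of 2-fold in replicate 2 and passed it in replicate 1, with log2 ratios of first over second of -0.98 in replicate 2 and -1.67 in replicate 1.

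**Figure D4:**
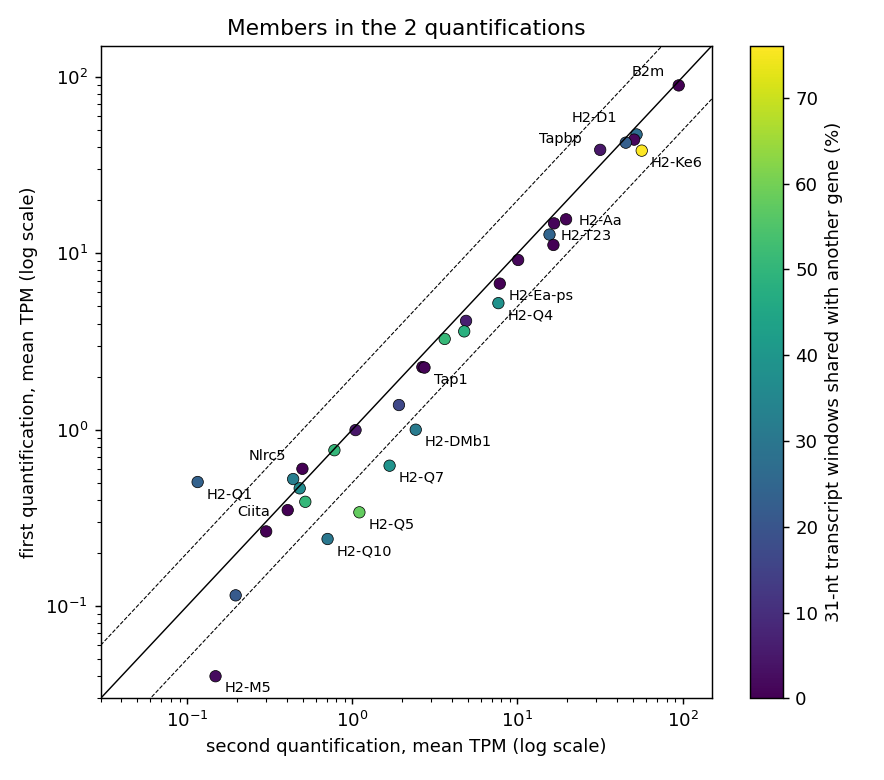
Mean TPM over the hearts in the first quantification against the second, both on log scales, for members with a mean of 0.1 TPM or more in either, except H2-Q3, which is at 0 in the first; the solid line is equality, dashed lines mark 2-fold, and colour gives the percent of the gene's 31-nt transcript windows that occur in another gene. H2-DMb1, H2-Q7, H2-Q5, H2-Q10 and H2-M5 lie beyond the 2-fold line on the side of the second quantification and H2-Q1 on the side of the first.

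How much of a member's transcripts is found elsewhere varied by class. At 100 nt, 33 of the 52 members shared no window with another gene and 46 shared under 10%. The highest shares among class I genes were 14.0% for H2-Q5, 12.0% for H2-Q7 and 10.8% for H2-Q6, and H2-DMb1 shared 11.3%, with H2-DMb2. At 31 nt, a length chosen after the data were seen, 21 members shared 20% or more of their windows. H2-D1 shared 26.7%, H2-K1 22.8%, H2-Q4 38.4%, H2-Q6 50.3%, H2-T22 51.0% and H2-Q5 57.8%. The class II genes H2-Aa, H2-Ab1 and H2-Eb1 shared 0.833%, 0.267% and 1.06%, and B2m, H2-Ea-ps and Nlrc5 none. Among class I genes with much sharing, levels per gene were still within 2-fold between quantifications for H2-K1, H2-D1, H2-Q4 and H2-T22. H2-Q4 had 317.5 and 330.8 counts in the first and 403.5 and 427.5 in the second in replicates 2 and 1, and H2-Q10, a secreted class I gene of liver, 14.4 and 31.9 in the first and 50.1 and 64.0 in the second. The windows come from the B6 reference. Reads from CAST alleles that differ from it were not examined, and their part in these differences was not tested.

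Transcripts were less certain than genes. Among the 20 members with a mean of 1 TPM or more, the transcript with the highest TPM was the same in both hearts for 18 in the first quantification and the same in all 4 values for 14. H2-K1 had the plainest difference. In the first quantification 44.5% of its TPM in replicate 2 and 37.5% in replicate 1 lay on a retained-intron fragment of 457 nt, on 230.9 and 189.7 counts, while the second gave it 0 in replicate 2 and 0.000155% in replicate 1. There the coding transcript H2-K1-205 was main, with 40.9% and 46.9%. Tapbp-208, a coding entry of 367 nt, held 33.8% and 26.2% of Tapbp TPM in the first and 0 in the second. Since a short transcript turns few counts into many TPM, the TPM of H2-K1 and Tapbp rest in part on these entries.

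Some members had most of their level on transcripts not annotated as coding for the full protein. The main H2-Eb1 transcript, H2-Eb1-205, is annotated to nonsense-mediated decay and held 60.4% of the gene's TPM in replicate 2 and 70.6% in replicate 1, and 67.9% and 70.7% in the second quantification. Protein-coding H2-Eb1 transcripts held 15.0% and 4.95%, and 19.7% and 20.3% in the second. Tap2-202, with a retained intron, held 72.9% of Tap2 TPM in replicate 2 and 71.2% in replicate 1, and 60.2% and 52.6% in the second. For H2-Ea-ps the main transcript H2-Ea-ps-202 is annotated as protein coding and held 80.4% in replicate 2 and 87.1% in replicate 1. For B2m, H2-D1, H2-Aa, Cd74 and H2-T23 coding transcripts held over 90% in both hearts and both quantifications.

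**Figure D5:**
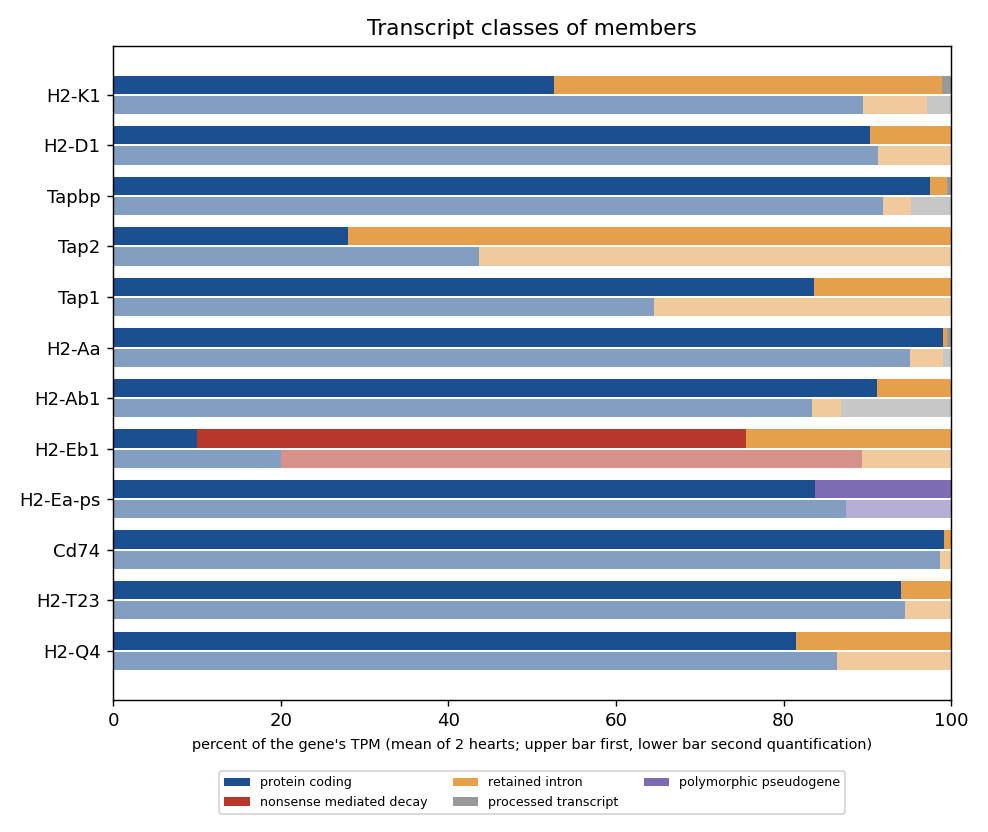
Percent of each gene's TPM by annotated transcript class, as the mean over the hearts, for 12 members; the upper bar of each pair is the first quantification and the paler lower bar the second. H2-Eb1 lay mostly on a transcript annotated to nonsense-mediated decay and Tap2 on a retained intron in both, while H2-K1 had a large retained-intron share in the first alone.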

How the data were processed

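Total RNA of heart was sequenced in 2 replicates of 1 group. The authors deposited expected counts of genes and transcripts from a first quantification, which per the sample notes used transcriptome alignments on mm10 and GENCODE annotation M21, with a tool not given in the sources used. Beside them the authors deposited TPM and FPKM, scaled over all entries and the spike-ins, and for each transcript the percent of its gene's TPM. The bounds of the posterior interval of TPM, a signal that is never negative, were deposited by the authors without a stated level. The authors also deposited estimated counts and TPM of transcripts from a second quantification, which per the sample notes used reads and an index, and these were summed per gene here. Effective length was transcript length minus 99 nt in the first quantification and minus 327 nt in replicate 2 and 325.1 nt in replicate 1 in the second, on average.

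TMM factors came from edgeR 4.0.16 in R 4.3.3 on expected counts rounded to whole numbers, without spike-ins, and were 1.008 in replicate 2 and 0.992 in replicate 1. Log2 ratios between hearts used a prior count of 1, and intervals are 95% Clopper-Pearson intervals on the counts, which cover counting error only, since copies of 1 molecule cannot be told apart without molecular identifiers. Ratios were read where the expected count averaged 50 or more and called by size, at 1.5-fold or 2-fold, over all genes, which is not a test. DESeq2 1.42.0 size factors, library totals, spike-in totals, other count minimums and folds, the second quantification and other units were alternatives. Transcript windows were compared between all annotated transcripts, coding sequences of class I genes were aligned, and promoters came from RefSeq on GRCm38.p6. The protein comparison planned for class I members was replaced by coding sequences. Promoter entries were matched by symbol.

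Members and lists were chosen with earlier results of these data known. Named are all members with a mean of 1 TPM or more, those with 1 TPM or more in the second quantification alone, and those at 1.5-fold or more between hearts; any other member was named after its values were seen.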

Additional observations from a re-analysis of the deposited data

How the results depend on the processing

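No paired analysis was possible because there is 1 group and no contrast between groups. Of the 64 summary results recomputed under an alternative, 17 were labelled as moved and 47 were not, and none changed sign. Results not labelled as moved include 19 members against 13 at 5 TPM, and a median of 0.12 against 0.19 with spike-in totals. A share of 44.9% against 42.1% was labelled as moved, so the label is no measure of closeness and the values are given. Among single genes, H2-K1 turned from -0.13 to 0.03 by TPM and Tapbp moved from 0.04 to 0.21. The count of members 1.5-fold or more higher in replicate 2, 3 at a mean count of 50 or more, was 6 at a minimum of 10, 7 with no minimum, 1 at a minimum of 200 and 0 at 2-fold. It was 2 by estimated counts in the second quantification (Nlrc5 and H2-T24) and 2 by TPM in the first (H2-T24 and Ciita). With library totals or spike-in totals it was 4. The count higher in replicate 1, 0 in the first place, was 2 at a minimum of 10 and 4 with no minimum. The median log2 ratio of the members, 0.12, ranged from 0.093 to 0.19 over 8 alternatives, the highest with spike-in totals; leaving out H2-Ke6, or keeping only members with few shared windows, was chosen after the data were seen and gave 0.12 each. Members at 1 TPM or more in both hearts numbered 19, and 32 at 0.1 TPM, 13 at 5 TPM and 22 in the second quantification, and 19 to 21 with 1 heart left out. The 2 members 2-fold or more lower in the first quantification became 0 with a pseudocount of 1 TPM and 3 with 0.01 TPM. That count was 0 at 4-fold, 3 at 1.5-fold and 2 to 3 with 1 heart left out. The share of classical class I in the members' sum was 44.9% by TPM, 40.1% of expected counts and 42.1% of TPM in the other quantification (43.9% to 45.8% by heart). For class II these shares were 23.1%, 20.995% and 24.4% (22.6% to 23.5%), for nonclassical class I 8.73%, 11.2% and 9.97% (8.48% to 8.99%), and for class I loading 12.5%, 20.3% and 9.74% (12.3% to 12.7%). The cause of these moves was not tested, apart from the count minimum, which changes how many members are read.

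With 2 replicates, differences between hearts have no test, and depth limits the low members, since 31 of 52 members fell under a mean count of 50. Counts of class I genes depend on how shared reads are split, and the reference represents 1 of the 2 parental strains.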
